A study of Mus musculus with 2 samples.

Results

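The genes described here are 10 immediate early and stress genes, Fos, Fosb, Jun, Junb, Egr1, Egr2, Egr3, Atf3, Ier3 and Myc, and their mRNA levels in neonatal mouse skin wounds with and without PU.1. They were chosen by name, as AP-1, Egr and related factors that injury induces, and all 10 were found among the 24346 gene symbols of both libraries. The wounds were full-thickness cuts of 1 cm in the dorsal skin of 1-day-old C57BL/6J pups and were harvested after 24 h. The methods call the wounds incisional, whereas the design text calls them excisional. The control group was WT, and the other group was made up of PU.1-/- littermates (labelled PU.1_KO), germline knockouts of Spi1, the gene that encodes PU.1. PU.1 directs the formation of myeloid and lymphoid cells, and the study describes these mice as lacking neutrophils, macrophages, mast cells and T cells. One library was sequenced for each genotype from whole wound tissue, and neither the number nor the sex of the pups behind it is stated. No unwounded skin and no earlier time point belong to this comparison, so the levels are those of wounds at 24 h and not an induction.

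Immediate early genes are transcribed within minutes of injury, stretch or growth factor exposure, from factors such as SRF and CREB that already sit in the nucleus and are switched on by MAP kinases. Their mRNAs are short-lived, because AU-rich elements in the 3′ UTR recruit decay proteins of the Zfp36 family. Fos and Jun proteins pair through leucine zippers to form AP-1, which drives matrix-degrading enzymes, cytokines and wound keratins at the wound edge, while Egr factors bind GC-rich promoters through zinc fingers and are held back by Nab corepressors. Atf3 is a stress-induced member of the ATF/CREB family, Ier3 is a small protein linked to cell survival rather than a DNA-binding factor, and Myc with its partner Max drives genes of growth and ribosome production.

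Promoters of immediate early genes can carry sites through which upstream pathways reach them, and short stretches are printed to show what the named sites look like. Promoter sequences of RefSeq on GRCm38.p6 were found for 7 of the 10 genes, and none was used for Egr1, Egr3 and Myc. The stretches are upstream of the annotated start site, 5′ to 3′ on the strand of the gene, and capitals mark a TATA box (TATAAA), a CRE core (TGACG on either strand), a CArG box (the site of SRF), an Egr site (GCGNGGGCG) or an NF-kB site. They lie at chr12:85473770-85473889 (plus strand) for Fos, chr10:67537749-67537868 (plus strand) for Egr2, chr8:84978749-84978868 (minus strand) for Junb, chr1:191183334-191183363 (minus strand) for Atf3, chr7:19310081-19310110 (minus strand) for Fosb and chr17:35821611-35821640 (plus strand) for Ier3.
Fos: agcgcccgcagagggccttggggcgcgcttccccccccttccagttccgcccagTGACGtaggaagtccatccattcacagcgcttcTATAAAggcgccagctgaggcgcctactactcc
Egr2: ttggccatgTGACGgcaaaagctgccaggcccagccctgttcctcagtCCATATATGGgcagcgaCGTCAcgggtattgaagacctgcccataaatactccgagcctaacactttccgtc
Junb: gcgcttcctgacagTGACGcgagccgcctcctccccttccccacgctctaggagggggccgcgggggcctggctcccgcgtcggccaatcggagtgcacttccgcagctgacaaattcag
Atf3: cctggaagctattaatagcattaCGTCAgc
Fosb: gcgggTGACGcaagcGCGGGGGCGggtccc
Ier3: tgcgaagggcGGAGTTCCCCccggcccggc
In windows of 300 bases around the start site (250 before and 50 after), searched on both strands, TGACG was present for 5 of the 7 genes, Fos, Fosb, Junb, Egr2 and Atf3, against 20.8% of all 32817 promoter windows. Egr2 has several annotated starts and was counted if any of its windows held the letters, whereas the share of all promoters is per single window. A CArG box was found only for Egr2 (1.63% of all windows), a TATAAA on the gene's strand for Fos and Junb (8.32%), an Egr site for Fosb (5.56%) and an NF-kB site for Egr2, Fos, Fosb and Ier3 (8.46%). The TATAAA lay at -33 to -28 from the start site for Fos, but at 1 to 6, downstream of it, for Junb. Sites more than 250 bases upstream were not searched. The AP-1 site TGACTCA was in none of the 7 (5.20% of all windows), the full CRE TGACGTCA, which contains TGACG, was also in none (1.79%), and the Myc box CACGTG was present for Egr2 (7.15%). The letters GAGGAA, the core bound by PU.1 and other Ets factors, were present for Atf3, Egr2 and Ier3, against 28.3% of all windows. The window of Jun held none of the motifs searched. The Egr2 matches to the NF-kB site and to CACGTG came from a start other than that of the printed stretch. A match of letters is a description and not a shown binding site.

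The knockout was checked first. The level of Spi1 was 35.4 FPKM in WT against 1.45 in PU.1-/-, or 24.3 times higher in WT (95% counting interval 17.9 to 34.0). FPKM is the number of fragments of a gene per kilobase of transcript, scaled to the depth of the library, so levels can be compared between genes. The WT library held an estimated 1.374e+07 fragments and the PU.1-/- library 1.578e+07, and the intervals, exact binomial on estimated reads, cover counting error only. The summed level of 12 macrophage markers was 1398 FPKM in WT and 8.13 in PU.1-/-, with Adgre1, C1qa, C1qb, C1qc, Tyrobp and Fcgr1 listed at 0 in the latter, and that of 10 mast cell markers was 750 against 14.2 FPKM. The sum of 11 neutrophil markers was 12589 against 3676 FPKM, with Ngp, Ltf, Retnlg, Csf3r and Mmp8 listed at 0 in PU.1-/-. Nearly all of the neutrophil sum came from S100a8 (6600 and 2129 FPKM) and S100a9 (5311 and 1516 FPKM), which wounded keratinocytes also express. The labelled tissue was borne out by 10 keratinocyte markers (11465 and 13028 FPKM summed) and 10 fibroblast markers (2852 and 3371 FPKM). Skeletal muscle markers summed to 10017 FPKM in WT and 16873 in PU.1-/-, and 4 of 12 were at least 2-fold higher. The libraries also differed in sex-linked genes, since Xist was listed at 0 in WT and had 9.48 FPKM in PU.1-/-, and Ddx3y, Eif2s3y, Kdm5d and Uty were listed at 0 in PU.1-/-. With 1 library per genotype, genotype, sex, muscle content and the animals themselves cannot be told apart, and no difference below was tested against a spread between animals.

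At 24 h the immediate early genes were all detected in the PU.1-/- wound, at levels close to those of the WT wound. None of the 10 was 2-fold lower and none was 2-fold higher in PU.1-/-, where 6.49% of the 16298 genes of at least 0.1 FPKM were at least 2-fold lower and 3.47% at least 2-fold higher. Among the 13237 genes of at least 1 FPKM, as all 10 were, these shares were 4.45% and 1.71%. None of the 10 differed by 1.5-fold, as 13.6% of those genes did in one direction or the other. All but Fosb and Egr3, that is 8 of the 10, had a ratio (PU.1-/- over WT) above 1, against 49.3% of the same genes. The log2 ratios ran from -0.11 (Egr3) to 0.50 (Egr1), with a median of 0.25 beside a median of -0.00 over all genes of at least 1 FPKM. Summed over the 10 genes, the level was 597 FPKM in WT and 718 in PU.1-/-, a ratio of 1.20. A ratio above 1 was also found for 9 of 10 fibroblast, 8 of 10 endothelial and 7 of 10 keratinocyte markers. It was found as well for 11 of 12 skeletal muscle, 9 of 10 Schwann cell, 5 of 6 pericyte and 7 of 8 red blood cell markers. Among hair follicle markers it was found for 2 of 8, and among adipocyte markers for 0 of 6. In whole tissue, fewer cells of a type and less RNA per cell cannot be told apart, for the 10 genes as for the markers.

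**Figure D1:**
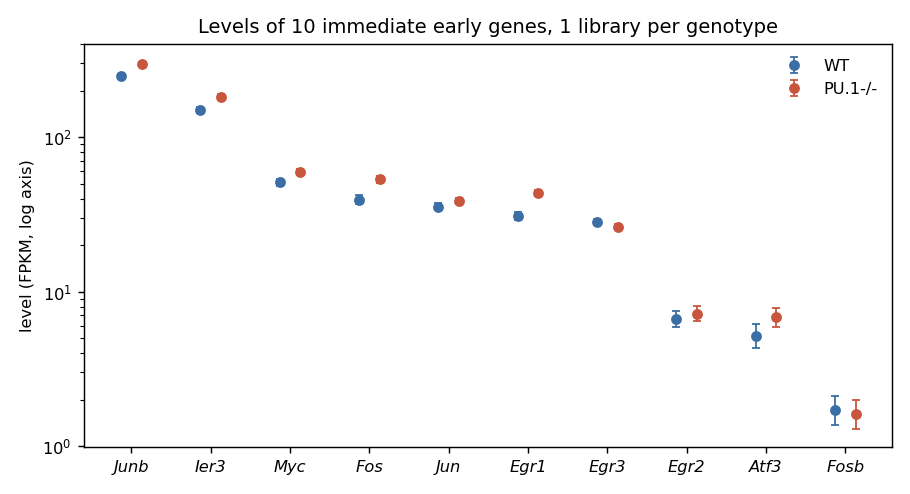
Level of each of the 10 genes in FPKM (log axis) in the WT library (blue) and the PU.1-/- library (red), ordered by WT level, with 1 library per genotype and 95% counting intervals as bars. The red point lies above the blue one for 8 genes, and the levels run from 248 FPKM for Junb to 1.72 FPKM for Fosb in WT.

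The order of the levels was nearly the same in both libraries. In WT it was Junb, Ier3, Myc, Fos, Jun, Egr1, Egr3, Egr2, Atf3 and Fosb, a span of 144-fold, and in PU.1-/- the span was 185-fold and Jun and Egr1 had changed places. Some neighbours were not separated by their counting intervals. In WT the intervals overlapped between Fos and Jun, between Egr1 and Egr3 and between Egr2 and Atf3, and in PU.1-/- between Egr2 and Atf3. Junb alone made up 41.5% of the sum of the 10 genes in WT and 41.5% in PU.1-/-. Among genes of at least 1 FPKM, Junb stood above 97.2% of the others in WT and Ier3 above 95.4%, whereas Fosb stood above only 8.58%. The levels of the 10 genes therefore ranged from near the top of the wound transcriptome to near its floor.

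Fos, the AP-1 subunit that cannot pair with itself and needs a Jun partner, was at 39.4 FPKM in WT and 53.2 in PU.1-/-. The ratio was 1.35 (interval 1.25 to 1.46, from about 1034 and 1601 reads), a log2 ratio higher than in 90.7% of genes of at least 1 FPKM. Fos occupies 85473890 to 85477274 of chromosome 12 on GRCm38, just downstream of the stretch printed for it. Fosb, its paralogue, was the least abundant of the 10, at 1.72 FPKM in WT and 1.62 in PU.1-/-. Its ratio of 0.942 rested on about 84 and 91 reads, and the interval of 0.693 to 1.28 held both a fall and a rise. The ratio of Fos to Fosb was 23.0 in WT and 32.9 in PU.1-/-, as the Fos value was higher and the Fosb value slightly lower in PU.1-/-.

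Jun, the partner of Fos in the classical AP-1 dimer and an activator of its own gene, had 35.5 FPKM in WT and 38.8 in PU.1-/-. The ratio was 1.09 (1.02 to 1.17), one of the smaller differences among the 10. Junb, which can dampen Jun activity and is prominent in epidermis, was the most abundant, at 248 FPKM in WT and 299 in PU.1-/-. With about 5480 and 7579 reads it also had the narrowest interval, 1.16 to 1.25 around a ratio of 1.20. The level of Junb was 6.98 times that of Jun in WT and 7.68 times in PU.1-/-. In the GENCODE annotation Junb spans 4235 bp and overlaps Prdx2 on the opposite strand by 351 bp. Prdx2 was at 273 FPKM in WT and 266 in PU.1-/-. The Junb transcript used to estimate its reads is 1809 nt long, and whether the overlap reaches it was not examined. Jun overlaps the antisense gene Junos by 689 bp. The library kit keeps the strand, but the strand setting of the counting is not given in the sources used here, so reads of these overlaps may be shared.

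Egr1, a zinc-finger factor that serum, stretch and injury induce in many cell types, showed the highest ratio of the 10. It had 30.8 FPKM in WT and 43.6 in PU.1-/-, a ratio of 1.42 (1.32 to 1.52) and a log2 ratio above that of 92.8% of genes. Egr2, known for its part in Schwann cell myelination and in lymphocytes, was lower in level and nearly equal, at 6.67 FPKM in WT and 7.19 in PU.1-/-, with a ratio of 1.08 whose interval, 0.913 to 1.28, held 1. Egr3, induced with Egr1 in nerve, muscle spindle and lymphocytes, had the lowest ratio of the 10, with 28.2 FPKM in WT and 26.2 in PU.1-/-. Its ratio was 0.930 (0.865 to 0.999), and counted with its shortest transcript the interval of 0.822 to 1.05 held 1. The 3 Egr genes therefore did not shift by one common factor, and the level of Egr1 was 1.09 times that of Egr3 in WT and 1.66 times in PU.1-/-. Relative to Jun, Egr1 was at 0.867 in WT and 1.12 in PU.1-/-. Egr2 is made by Schwann cells, and the summed level of 10 Schwann cell markers was 141 FPKM in WT and 175 in PU.1-/-. The part of those cells in the Egr2 value was not tested.

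Atf3, the stress factor, was at 5.18 FPKM in WT and 6.82 in PU.1-/-. Its ratio of 1.32 was close to that of Fos, but about 127 and 192 reads gave it a wide interval, 1.05 to 1.66. Ier3 was the second most abundant, with 151 FPKM in WT and 183 in PU.1-/-, and a ratio of 1.21 (1.14 to 1.28). Ier3 and Junb, the most abundant pair, kept nearly the same proportion, with Ier3 at 0.609 of the Junb level in WT and 0.612 in PU.1-/-. Myc had 51.0 FPKM in WT and 59.7 in PU.1-/-, a ratio of 1.17 (1.09 to 1.25). It lies at 61985341 to 61990361 of chromosome 15.

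The counting intervals lay above 1 for 7 of the 10 genes, below 1 for Egr3, and held 1 for Fosb and Egr2. Over all genes of at least 1 FPKM with a transcript length, 24.3% had an interval above 1, 24.1% an interval below 1, and 51.6% an interval that held 1. An interval clear of 1 is thus common at this depth and speaks of the 2 libraries rather than of the genotypes. No interval of the 10 genes reached a ratio of 2, the highest bound being 1.66 (Atf3), and the lowest bound was 0.693 (Fosb).

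**Figure D2:**
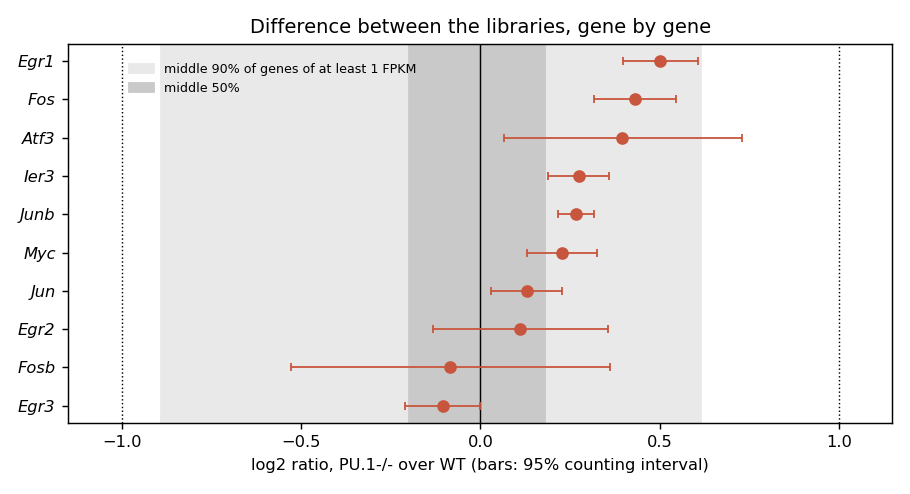
Log2 ratio of PU.1-/- over WT for each of the 10 genes, with 95% counting intervals as bars; the light and dark grey bands hold the middle 90% and 50% of genes of at least 1 FPKM, and the dotted lines mark 2-fold. Every point lies between the dotted lines and within the light band, and Egr1, Fos and Atf3 lie farthest to the right.

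Set against genes of similar level, the 10 were placed much as they were among all genes. Levels were matched within 2-fold on the higher value of the 2 libraries. Among the genes so matched to each, Egr1 had a higher ratio than 95.5%, Fos than 93.5%, Atf3 than 89.5%, Ier3 than 88.5%, Junb than 86.0% and Myc than 85.1%. Jun and Egr2 stood at 72.6% and 64.0%, while Fosb stood at 43.9% and Egr3 at 30.8%. The middle 50% of genes of at least 1 FPKM had log2 ratios between -0.20 and 0.18, a range that held the values of Jun, Egr2, Fosb and Egr3. The other 6 genes lay above this range but below the 95th percentile of 0.62.

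**Figure D3:**
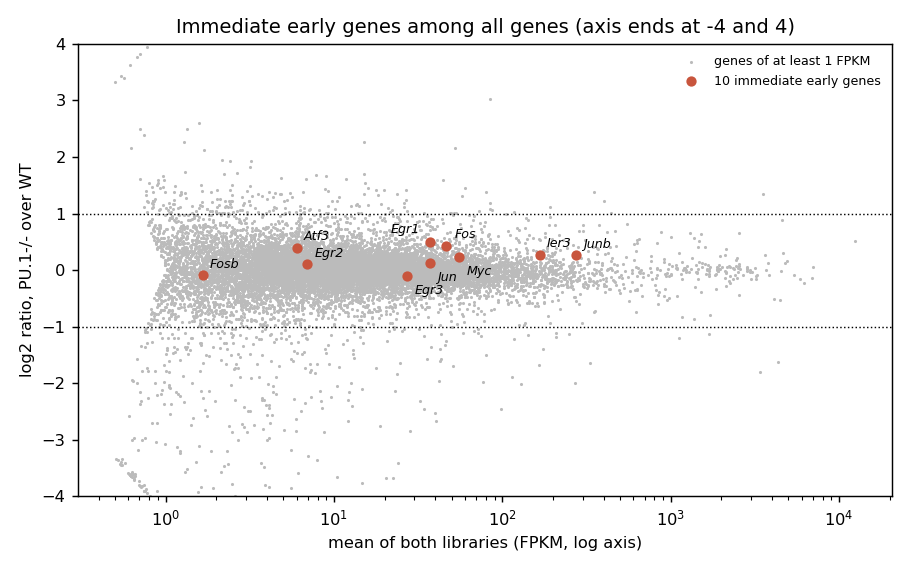
Log2 ratio of PU.1-/- over WT against the mean level of both libraries (FPKM, log axis) for the genes of at least 1 FPKM (grey) and the 10 immediate early genes (red); the axis ends at -4 and 4 and genes beyond it are not drawn, and dotted lines mark 2-fold. The red points lie along the central band of the grey cloud, most of them in its upper part.

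The partners of Fos and Jun were described next, as the other subunits of AP-1 and related leucine zipper proteins. Of 16 listed partners, 10 had a ratio above 1, 1 was at least 2-fold lower and 1 at least 2-fold higher, with a median log2 ratio of 0.07. For this and the later lists, the share of genes of at least 1 FPKM with a ratio above 1 was 49.3%. The shares at least 2-fold lower and higher were 4.45% and 1.71%. Fosl2, a Fos family member abundant in skin, was at 41.7 FPKM in WT and 48.1 in PU.1-/-. Jund, which is present in most cells without stimulation, was nearly equal at 71.5 and 72.4 FPKM, as was Fosl1, at 4.97 and 5.38 FPKM. The 2-fold lower partner was Batf, a zipper protein of lymphocytes and other leukocytes, at 6.36 FPKM in WT and 2.09 in PU.1-/-. The 2-fold higher partner was Mafa, at 3.90 and 7.96 FPKM. Batf went in the direction of the leukocyte markers given above, but its paralogue Batf3, known from dendritic cells, went the other way, at 7.80 and 13.2 FPKM with a ratio of 1.69 (1.25 to 2.34). The part of leukocytes in either value was not tested.

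Among 17 other factors of the ATF, CREB and C/EBP families, to which Atf3 is related or with which it pairs, none was past 2-fold in either direction. A ratio above 1 was found for 11, and the median log2 ratio was 0.07. The most abundant was Atf4, the main factor of the integrated stress response, at 270 FPKM in WT and 262 in PU.1-/-. The highest log2 ratio was that of Cebpd (0.55), at 60.9 and 89.2 FPKM, and the lowest that of Creb3l1 (-0.48), at 25.1 and 17.96 FPKM. Of 11 targets of the integrated stress response, 4 had a ratio above 1, none was past 2-fold, and the median log2 ratio was -0.14. Most of those targets thus had a ratio below 1 where that of Atf3 was above 1.

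The corepressors that bind Egr proteins were at similar levels in both wounds. Nab1 had 24.6 FPKM in WT and 24.5 in PU.1-/-, and Nab2, itself an Egr target gene, had 19.5 and 22.7 FPKM. Sp1, which binds GC-rich sites near those of Egr1, had 16.7 and 19.8 FPKM. The fourth Egr family gene, Egr4, was below 0.1 FPKM in both libraries, so no ratio is given for it. The factors that switch on Fos and Egr genes through the CArG box were also close. Srf was at 21.98 FPKM in WT and 20.87 in PU.1-/-, and its ternary complex partners Elk1 (6.75 and 6.82 FPKM), Elk3 (18.03 and 14.75 FPKM) and Elk4 (9.57 and 11.7 FPKM) moved in different directions by less than 2-fold. Of 35 genes of the MAP kinase pathway, which activates these factors, 16 had a ratio above 1 and none was past 2-fold, with a median log2 ratio of -0.00. The extremes of that list were Braf, at 4.38 and 5.57 FPKM (0.35), and the S6 kinase gene Rps6ka1, at 18.78 and 12.99 FPKM (-0.53).

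In the Myc network, Max, the obligate partner of Myc, was at 42.3 FPKM in WT and 45.1 in PU.1-/-. The paralogues Mycn (4.32 and 3.99 FPKM) and Mycl (12.44 and 12.01 FPKM) were lower in level than Myc and nearly equal between the wounds. Of the Mxd proteins, which compete with Myc for Max, Mxd1 was at 31.3 and 25.7 FPKM, Mxd3 at 8.75 and 5.71 FPKM, and Mxd4 at 41.6 and 46.5 FPKM. Over the 12 network genes measured, 6 had a ratio above 1 and the median log2 ratio was 0.02. Among 22 target genes of Myc, 5 had a ratio above 1, none was past 2-fold, and the median was -0.09. Nme2, the most abundant, was at 819 FPKM in WT and 732 in PU.1-/-, and Cad, an enzyme of pyrimidine synthesis, was at 10.6 and 7.67 FPKM (-0.46). Thus Myc mRNA was at a ratio of 1.17 while most of its listed targets had a ratio below 1.

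Other immediate early genes gave a wider view of the same class. Of 57 further genes of the class, 43 had a ratio above 1, with a median log2 ratio of 0.20 beside 0.25 for the 10 genes, and 1 was at least 2-fold lower and 1 at least 2-fold higher. Among the 23 that encode transcription factors or their regulators, 17 had a ratio above 1. Nr4a2, an orphan nuclear receptor, was at 2.17 FPKM in WT and 4.65 in PU.1-/-, past 2-fold, whereas Id2, an inhibitor of helix-loop-helix factors, was at 61.2 and 36.8 FPKM (-0.74). Klf4, an epidermal barrier factor and the most abundant of them, was at 215 and 172 FPKM. Among the 34 that encode signalling or RNA decay proteins, 26 had a ratio above 1. Rgs1, a regulator of G protein signalling known from leukocytes, was at 1.93 FPKM in WT and listed at 0 in PU.1-/-, and Arc was at 3.87 and 6.71 FPKM (0.80). Zfp36l2, a decay protein of AU-rich mRNAs and the most abundant of these in PU.1-/-, was at 104 and 147 FPKM, while Mcl1, the most abundant in WT, was at 113 and 106 FPKM. Dusp1, a phosphatase that turns off MAP kinases and is named here after its values were seen, ran the other way at 79.8 and 60.3 FPKM (-0.40).

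For each of the 10 genes, the genes of the pathway lists nearest to it in log2 ratio, among those within 2-fold of its WT level, were looked up. Egr1 was nearest to Ptgs2, the inducible cyclooxygenase (20.0 and 28.4 FPKM), and to Bhlhe40 (40.2 and 57.4 FPKM), both with a log2 ratio of 0.51. Fos was nearest to Gadd45b and Gadd45g, Atf3 to Dusp4 and Braf, and Ier3 to Ddit4 (85.7 and 103 FPKM) and Zfp36l1. Jun was nearest to Hbegf and Atf1, Myc to Id3 and Phlda1, and Junb to Hsp90aa1 and Nupr1, although those differed from Junb by 0.20 and 0.22 on the log2 scale. Egr2 was nearest to Mnt and Fosl1, Fosb to Map2k6 and Mapk11, and Egr3 to Map2k1 and Dkc1. This likeness rests on 1 ratio between 2 libraries and is given as a description.

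**Figure D4:**
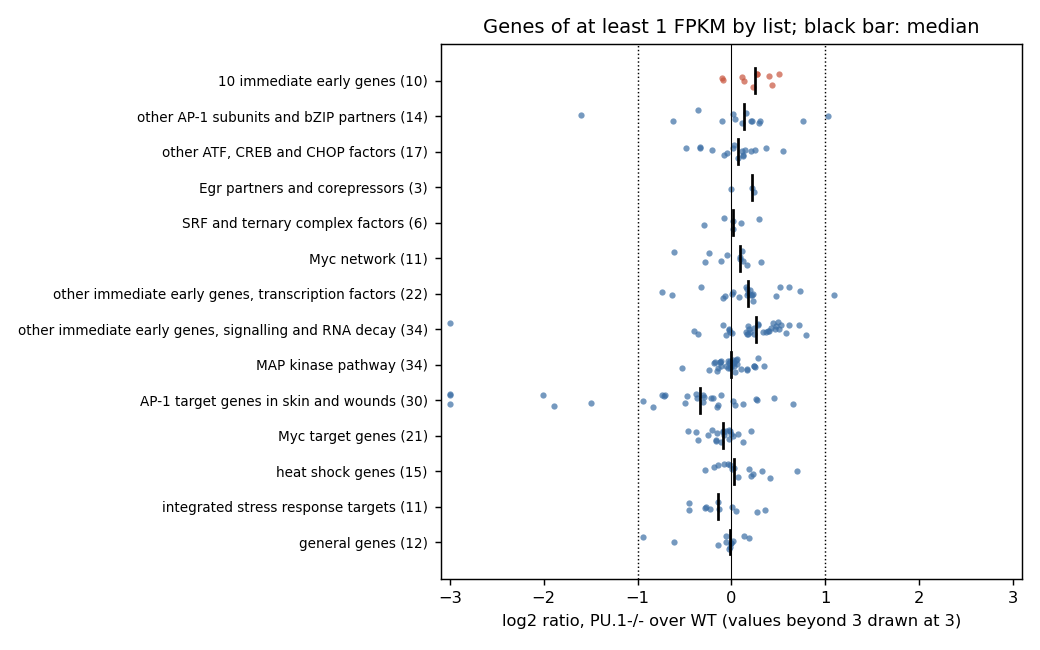
Log2 ratio of PU.1-/- over WT for the genes of each list that reached 1 FPKM in either library (number in brackets), each point a gene and each black bar the median; values beyond 3 are drawn at 3 and dotted lines mark 2-fold. The medians of the 10 genes (0.25) and of the signalling and RNA decay genes (0.26) lie to the right of 0, and that of the AP-1 target genes (-0.33) lies to its left.

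Most of the listed target genes of AP-1 in skin and wounds had lower values in PU.1-/-, unlike Fos, Jun and Junb. Of 32 targets, 7 had a ratio above 1, 7 were at least 2-fold lower and none was 2-fold higher, and the median log2 ratio was -0.37. Over all genes of at least 1 FPKM, 49.3% had a ratio above 1, 4.45% were at least 2-fold lower and 1.71% at least 2-fold higher. Ccl3 and Ccl4, chemokines of myeloid cells, were at 93.1 and 51.0 FPKM in WT and listed at 0 in PU.1-/-, and Il1b, an inflammatory cytokine, was at 63.9 FPKM against 0.169 FPKM. Cxcl2, a neutrophil attractant, was at 180 and 48.4 FPKM, Spp1, encoding osteopontin, at 206 and 51.2 FPKM, and Plaur, the urokinase receptor, at 119 and 42.1 FPKM. The seventh stayed below 1 FPKM in both. These are genes that leukocytes also express, and they went with the macrophage and neutrophil markers given above, whose part in the values was not tested. The 4 wound keratins on the list, which AP-1 is known to drive in keratinocytes, differed by less than 1.5-fold. Krt16, the most abundant target, was at 3297 FPKM in WT and 3978 in PU.1-/-, Krt6a at 1866 and 1888 FPKM, Krt6b at 1921 and 2304 FPKM, and Krt17 at 973 and 901.5 FPKM. Other epidermal genes on the list went both ways. Lor was at 513 and 703 FPKM, Sprr1a at 1724 and 1324 FPKM, Sprr1b at 1531 and 1244 FPKM, and Ivl at 34.8 and 31.2 FPKM. Lower by less than 2-fold were also Timp1 (436 and 261 FPKM), Plau (20.0 and 12.2 FPKM) and Mmp3 (56.1 and 39.8 FPKM). Vegfa, which had the highest ratio of the list, was at 13.2 and 20.8 FPKM (0.66). The keratins Krt6a and Krt6b are close paralogues, and reads may be shared between them.

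General stress genes were set beside Atf3 and the other members. Of 15 heat shock genes, 9 had a ratio above 1, none was past 2-fold, and the median log2 ratio was 0.03. Hspa8, the constitutive chaperone, was at 1075 FPKM in WT and 1096 in PU.1-/-. The highest ratio was that of Cryab, a small chaperone abundant in muscle, at 230.5 and 373 FPKM (0.69), which went with the skeletal muscle markers, whose median log2 ratio was 0.75, and their part in the Cryab value was not tested. The 12 general genes had a median of -0.02, with B2m (-0.94) the lowest. A ratio above 1 was found for 3 of these 12, as for 5 of the 22 Myc targets. The immediate early genes are expressed by muscle as well as by skin cells, and the part of muscle in their values was not tested either.

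The 10 genes shared a compact structure that their choice did not use. All 10 had at most 4 exons in their longest transcript, against 21.97% of 12446 genes of at least 1 FPKM, and Jun and Junb had a single exon. Their median gene span was 5073 bp, against 23356 bp over those genes. Atf3 was the exception, with 47744 bp in GENCODE, the annotation used for these counts. RefSeq places Atf3 at 191170296 to 191183333 of chromosome 1, a shorter gene whose start lies inside the GENCODE one, and the Atf3 stretch printed above overlaps an exon of a GENCODE transcript of Atf3. Median transcript length was close, at 2652 nt against 2993 nt, and so was the median 3′ UTR, at 1187 nt against 1050 nt. The pentamer ATTTA, the core of AU-rich elements, occurred at least 3 times in the 3′ UTR of 6 of the 10 (60%), against 35.7% of all genes of at least 1 FPKM. Ier3 was the densest, with 5 copies in 613 nt, above 98.0% of genes, followed by Fos, Myc and Junb, whereas Fosb had 1 copy in 2145 nt. The longer element TTATTTATT, which contains ATTTA, was present only in Fos, against 7.46% of all genes. The 54 other immediate early genes with these data were similar in part, with a median of 4 exons and 61.1% holding at least 3 pentamers. Of these 54, 70.4% had at most 4 exons, 7.41% had a single exon, and 24.1% held TTATTTATT.

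**Figure D5:**
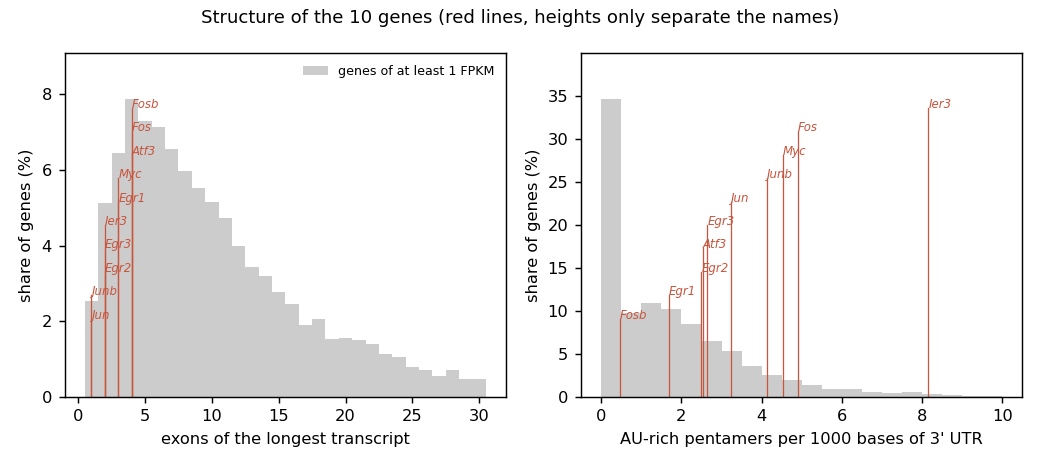
Distribution, in percent of genes of at least 1 FPKM, of the number of exons (left) and of AU-rich pentamers per kilobase of 3′ UTR (right), with red lines at the values of the 10 genes; line heights only separate the names, and the axes end at 30 exons and 10 pentamers. All 10 genes stand at 1 to 4 exons, and Ier3 stands farthest right in pentamer density.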

How the data were processed

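Whole wound RNA was prepared with a stranded mRNA kit, 1 library per genotype. The authors mapped the reads to mm10 and deposited FPKM values made with Cuffnorm. The submitters' processing notes name TopHat2 2.1.1, Bowtie2 2.2.8, SAMtools 0.1.18 and Cuffdiff 2.2.1. No source used here gives the annotation, the strand setting or the handling of reads that map to several places, so values of paralogues and overlapping genes may be mixed.

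The ratio of the 2 libraries was computed from the deposited FPKM, with values below 0.1 raised to 0.1, and genes past 2-fold were counted. Depth was estimated from the whole-read steps of low genes (75.2% and 75.5% of values within 0.1 read). Reads per gene followed from the longest GENCODE M21 transcript linked to RefSeq, less 200 nt. Such a length was found for 89.1% of genes. Clopper-Pearson intervals (95%) on these reads cover counting error only. No test across animals was possible, and no p-values are given. The scripts were checked on simulated libraries.

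The 10 genes, the lists and the markers were chosen with earlier results of these data known. The genes named are the 10, Spi1, any gene of the AP-1 partner, Egr partner, SRF and Myc network lists, and, of the other lists, genes past 2-fold, the most abundant, the extremes and the 2 nearest to each of the 10. Dusp1, Mcl1, Krt6a, Krt6b, Krt17, S100a8, S100a9, Lor, Sprr1a, Sprr1b, Ivl, Timp1, Plau and Mmp3 were added after their values were seen. Alternatives were other floors, pseudocounts, filters, scalings and fold thresholds. Gene positions and promoter sequences are from RefSeq (GRCm38.p6). Analyses used Python 3.11.15, numpy 2.4.6, pandas 2.3.3 and scipy 1.17.1, with figures in matplotlib 3.10.9.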

Additional observations from a re-analysis of the deposited data

How the results depend on the processing

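Of 471 values recomputed under the alternatives, 463 stayed within tolerance, among them all 89 ratios of the 10 genes. The tolerance was 1.5 times for counts and the gene's own counting interval for ratios. For medians it was the median margin of the counting intervals on the log2 scale. The median log2 ratio of the 10 genes ranged from 0.25 to 0.29, and 8 of the 10 had a ratio above 1 in each setting (8 of 9 where a filter of at least 5 FPKM removed Fosb). None passed 1.5-, 2- or 3-fold. Rescaling shifted all log2 ratios by 0.01 to 0.05. Of the other lists, the Egr partners had 1 gene 2-fold higher (Wt1, below 1 FPKM) with a floor of 0.01 FPKM or equal FPKM sums, and their median was 0 with a floor of 1 FPKM. The 2-fold lower signalling gene (Rgs1) left 0 with a floor of 1 FPKM or the 5 FPKM filter. With a pseudocount of 1 FPKM, 0 AP-1 partners and 0 immediate early transcription factors were 2-fold higher, and the 5 FPKM filter also left 0 of the latter. No paired analysis was possible because each genotype has 1 library, so no library could be left out. Fosb, Atf3 and Egr2 rest on the fewest reads, and their ratios are the least precise.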
